A study of Mus musculus with 4 samples.

Results

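The serine synthesis and folate one-carbon genes are 9 enzyme genes that were chosen by symbol as enzymes of the pathway, and all 9 were found among the 21091 entries of the expression tables. They are *Phgdh*, *Psat1* and *Psph* of serine synthesis, *Shmt2*, *Mthfd2*, *Mthfd1l* and *Aldh1l2* of the mitochondrial folate pathway, and *Shmt1* and *Mthfd1* of the cytosolic folate pathway. Their expression was compared in 4 RNA-seq libraries of cultured C57BL/6 mouse neural progenitors, taken from control (CTL) and *Stat3* conditional knockout (*Stat3* cKO) brains at embryonic day 11 (E11) or 14 (E14), with 1 library in each group. The cells were grown in suspension for 3 days, as neurospheres in serum-free medium with EGF and FGF, before RNA was isolated. The deletion was driven by Nestin-Cre, a transgene active in neural progenitors, in embryos with both *Stat3* alleles floxed. The sample labels name the control genotype WT, while the animal methods of the study name Nestin-Cre embryos with a single floxed *Stat3* allele as controls, so whether the CTL cells carried Cre is not settled by the labels. The number of embryos behind each library is not given in the sources used here. As no group was replicated, the differences carry no replicate check and no test was run on them.

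Serine is made from the glycolytic intermediate phosphoglycerate in 3 steps, carried out in turn by PHGDH, PSAT1 and PSPH. SHMT1 in the cytosol and SHMT2 in mitochondria split serine into glycine and a one-carbon unit carried on tetrahydrofolate (THF). In mitochondria, MTHFD2 oxidises this unit to formyl-THF, MTHFD1L releases it as formate for export, and ALDH1L2 can instead oxidise it to carbon dioxide with production of NADPH. In the cytosol, MTHFD1 takes formate back onto THF, from where the unit serves purine, thymidylate and methionine synthesis. Dividing cells are known to depend on this pathway, and several of its genes, among them *Psat1*, *Mthfd2* and *Aldh1l2*, are known targets of ATF4, the transcription factor of the amino acid and stress response.

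Each value is an FPKM, the fragments mapped to a gene scaled to transcript length and library size, as the authors deposited it. Because FPKM is scaled to transcript length, levels can be compared between genes within a library. Read counts are not part of the values. The values left by single fragments in the least expressed genes put the libraries at a similar depth, with estimates of 1.07 and 0.835 for CTL and *Stat3* cKO at E11 and 0.923 for CTL at E14, relative to *Stat3* cKO at E14. The targeted gene *Stat3* had 7.41 FPKM in CTL against 6.74 in *Stat3* cKO at E11, and 27.6 against 9.55 at E14. The deletion removes the exons for the SH2 domain, so a value over the whole gene need not fall, and the E11 value does not check the label of that library. The paper gives the knockout in neural progenitors as reached by E14. How far *Stat3* was already lost in the E11 cells is not known from these values. All 8 neural progenitor markers were above 0 in every library. *Fabp7* had 516 FPKM or more throughout, and *Msi1* had 21.2 FPKM in CTL against 21.8 in *Stat3* cKO at E11, and 4.25 against 7.03 at E14. From E11 to E14 in CTL, 3 of them were higher by at least 2-fold, as 14.6% of all genes were, and 2 (*Pax6* and *Msi1*) lower, as 12.5% were. The list of 8 mesenchyme and pericyte markers summed to 1327 FPKM in E11 CTL and 1172 in E11 *Stat3* cKO, against 16.5 and 10.8 at E14, so the cultures of the stages also differed in transcripts of another cell type. The E14 *Stat3* cKO library had 25.1 FPKM of the Y-linked *Ddx3y*, against 0.0569 in CTL of the same stage and 0 at E11, so sex and genotype cannot be told apart at E14. For the same reason sex and stage cannot be told apart in *Stat3* cKO. This also bears on differences between the genotype ratios of the stages. None of the 9 genes lies on a sex chromosome.

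The serine synthesis genes *Phgdh* and *Psat1* had the highest levels of the 9 genes in every library. *Phgdh*, whose enzyme opens the pathway, is listed on chromosome 3 from 98117093 to 98143892. It had 200.1 FPKM in CTL against 157 in *Stat3* cKO at E11, and 269.8 against 321 at E14. *Psat1*, for the aminotransferase of the middle step, is listed on chromosome 19 from 15979612 to 15999549 and had 298, 203, 311 and 329.9 FPKM in the same order. *Psph*, for the phosphatase that releases serine, is listed on chromosome 5 from 130271433 to 130293129 and had 63.2, 28.1, 50.2 and 66.9 FPKM. All 3 were thus lowest in E11 *Stat3* cKO and highest in E14 *Stat3* cKO, while the CTL libraries lay between.

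The mitochondrial folate genes were all highest in E11 CTL and lowest in E14 *Stat3* cKO. *Shmt2* (chromosome 10, 126951994 to 126959500) had 77.7 FPKM in CTL against 45.6 in *Stat3* cKO at E11, and 38.4 against 29.1 at E14. *Mthfd2* (chromosome 6, 83255697 to 83267598) had 83.0, 56.2, 30.9 and 10.9 FPKM in the same order. Both started from about the same level in E11 CTL, and *Mthfd2* was the lower of the pair by E14 *Stat3* cKO. *Mthfd1l* (chromosome 10, 6179459 to 6373466) had 17.0, 11.7, 13.2 and 4.58 FPKM. *Aldh1l2* (chromosome 10, 82950191 to 82996885) had 34.4, 9.14, 5.70 and 5.15 FPKM, so that its E11 CTL library stood far above the other 3.

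The cytosolic genes ran the other way and were highest in E14 CTL. *Shmt1* (chromosome 11, 60602398 to 60624767) had 9.75 FPKM in CTL against 13.8 in *Stat3* cKO at E11, and 45.0 against 15.9 at E14. *Mthfd1* (chromosome 12, 77356218 to 77420807) had 12.4, 18.2, 42.1 and 32.5 FPKM. Both were lowest in E11 CTL, the library in which all mitochondrial genes were highest. These positions are given as listed by the authors. The submitters' processing notes name the mouse builds mm8 and mm9 without saying which one the positions use. In the RefSeq annotation of GRCm38, *Psph* overlaps *Cct6a* and *Shmt2* overlaps *Ndufa4l2*, and whether strand was used in counting is not stated. In the positions listed by the authors, *Cct6a* starts at 130293260, past the listed end of *Psph*. *Shmt2* and *Ndufa4l2* are listed with the same span, so the span given for *Shmt2* may not be that of *Shmt2* alone. *Ndufa4l2* was at 1.48 FPKM or less in every library, far below *Shmt2*. *Cct6a* had 168 FPKM in CTL against 198 in *Stat3* cKO at E11, and 380.2 against 249 at E14, an order unlike that of *Psph*.

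**Figure D1:**
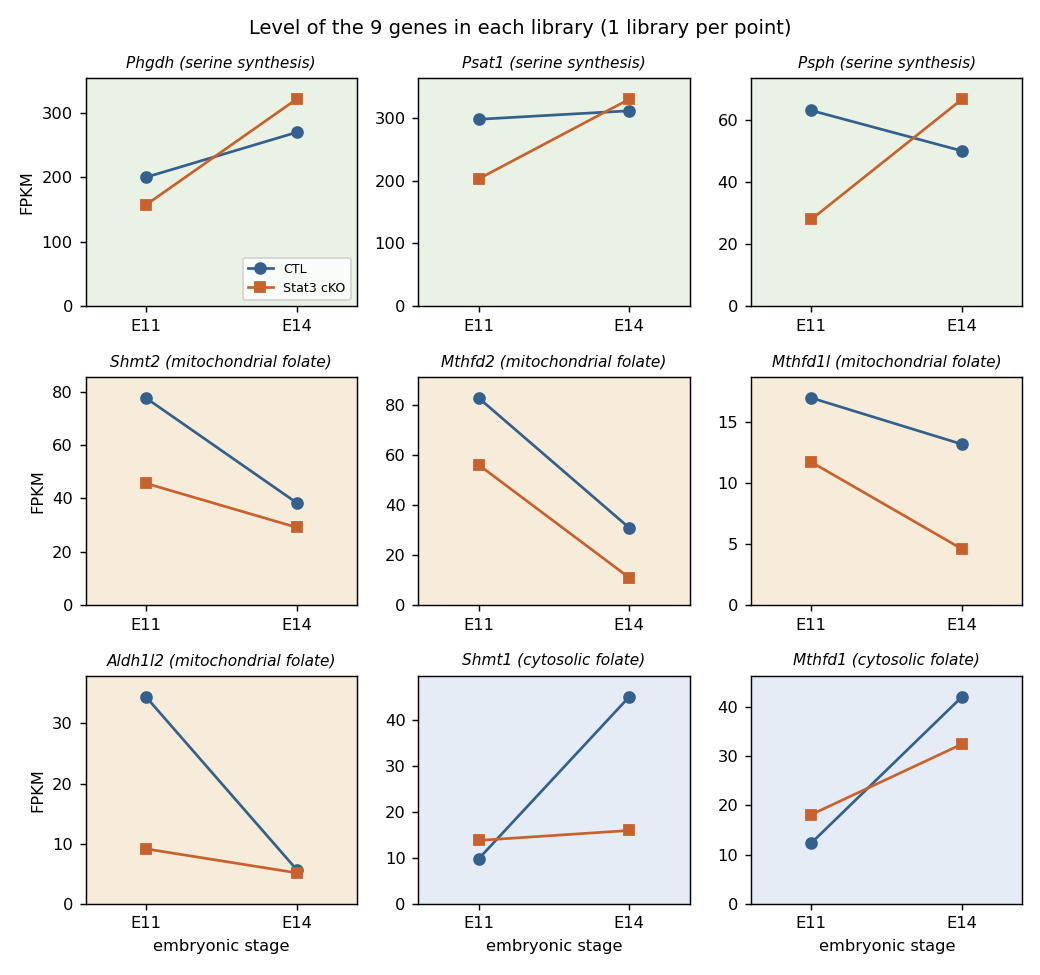
FPKM (vertical axes, from 0) of each gene at E11 and E14 (horizontal axes), with circles for CTL, squares for *Stat3* cKO, 1 library per point and lines joining the stages of a genotype. The 3 serine synthesis genes cross between the stages, the 4 mitochondrial genes lie lower in *Stat3* cKO at both stages (for *Aldh1l2* at E14 by 5.15 against 5.70 FPKM, which upper-quartile scaling turns), and *Shmt1* and *Mthfd1* cross the other way.

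The promoters of the genes were read for short patterns known for factors that bear on this pathway. RefSeq windows of GRCm38.p6, each with 250 bases before and 50 after a transcription start, were at hand for 8 of the 9 genes. *Psat1* had a pair of them, which made 9 windows. *Aldh1l2* was not among them. The 4 windows shown are that of *Shmt2*, with the only match to the STAT pattern, those of *Psat1* (the first of its pair) and *Mthfd2*, each with 3 matches to the CCAAT box, the most of any, and that of *Psph*, with matches to both the CCAAT box and the E2F pattern. All 4 are on the minus strand, at chr10:127522395-127522694 for *Shmt2*, chr19:15925010-15925309 for *Psat1*, chr5:129787204-129787503 for *Psph* and chr6:83317555-83317854 for *Mthfd2*. They are written 5′ to 3′, with matches to any pattern in capitals.
Shmt2: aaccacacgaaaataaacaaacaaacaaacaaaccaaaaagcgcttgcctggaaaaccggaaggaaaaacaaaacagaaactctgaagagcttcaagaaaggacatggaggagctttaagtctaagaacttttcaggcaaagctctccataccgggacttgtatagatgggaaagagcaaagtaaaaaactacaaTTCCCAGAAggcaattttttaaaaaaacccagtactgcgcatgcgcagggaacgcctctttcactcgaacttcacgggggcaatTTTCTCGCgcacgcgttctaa
Psat1: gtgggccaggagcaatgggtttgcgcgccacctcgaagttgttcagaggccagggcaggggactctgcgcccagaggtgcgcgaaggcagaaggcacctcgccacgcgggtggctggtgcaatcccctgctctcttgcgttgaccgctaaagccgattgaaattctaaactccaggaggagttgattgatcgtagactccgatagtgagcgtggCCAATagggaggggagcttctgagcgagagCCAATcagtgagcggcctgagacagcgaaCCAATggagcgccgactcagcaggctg
Psph: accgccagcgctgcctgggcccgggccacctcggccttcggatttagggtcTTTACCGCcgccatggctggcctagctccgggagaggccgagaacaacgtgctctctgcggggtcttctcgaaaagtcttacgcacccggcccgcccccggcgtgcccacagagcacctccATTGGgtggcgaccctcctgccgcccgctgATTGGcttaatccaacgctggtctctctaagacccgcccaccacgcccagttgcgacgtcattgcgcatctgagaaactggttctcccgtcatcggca
Mthfd2: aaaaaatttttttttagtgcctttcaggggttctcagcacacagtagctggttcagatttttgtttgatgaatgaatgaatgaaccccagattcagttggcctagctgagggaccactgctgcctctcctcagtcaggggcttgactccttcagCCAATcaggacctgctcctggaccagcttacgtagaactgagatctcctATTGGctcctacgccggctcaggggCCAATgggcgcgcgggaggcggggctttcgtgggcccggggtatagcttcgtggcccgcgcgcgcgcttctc
The STAT pattern TTCNNNGAA was found in the *Shmt2* window alone, 55 bases before the start, and in 8.30% of all 32851 windows. The E2F pattern TTTNNCGC was found for *Shmt2* and *Psph*, against 5.17% of all windows. The core of the ATF4 response element, TGATGNAA, was in none of the 9 windows and in 3.97% of all, and the E-box CACGTG was in none and in 7.15% of all. The CCAAT box, added to the search after results were known, was in 6 of the 9 windows (*Phgdh*, *Psat1*, *Psph*, *Mthfd2*, *Shmt1* and *Mthfd1*) and in 37.4% of all. The cyclic AMP response element TGACGTCA, added at the same time, was in none of the 9 and in 1.79% of all. Both strands were searched, no matches of different patterns overlapped in the 9 windows, and a match is a run of letters, not a shown binding site.

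The comparison of *Stat3* cKO with CTL at E11 asks how the genes stood at the earlier stage. Of the 9 genes, 7 were lower in *Stat3* cKO, where 38.2% of all genes were (62.8% with upper-quartile scaling), and the 2 that were higher, as 61.8% of all genes were, are the cytosolic ones. A gene was called higher or lower when its ratio reached 2-fold, among genes whose level averaged 1 FPKM or more over the 4 libraries, a minimum that all 9 genes passed. By this measure *Aldh1l2* and *Psph* were lower and none was higher, that is 2 and 0 of 9, whereas 1.12% of the 12430 genes with a ratio were lower and 0.209% were higher. *Aldh1l2* was 3.77-fold lower (log2 ratio of -1.91), the 27th lowest ratio of all genes. *Psph* was 2.25-fold lower (log2 ratio of -1.17), the 90th lowest. Its partners in serine synthesis had log2 ratios of -0.55 for *Psat1* and -0.35 for *Phgdh*, so the last step of the pathway differed most.

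In the mitochondrial pathway at E11, *Shmt2* had a log2 ratio of -0.77, *Mthfd2* of -0.56 and *Mthfd1l* of -0.54. These are ratios of 0.588, 0.677 and 0.690, within 2-fold, yet no more than 4.34% of all genes had a lower ratio than any of them. *Shmt1* and *Mthfd1* had log2 ratios of 0.50 and 0.55, and 3.62% and 2.65% of genes had higher ones. Over all genes the median was 0.059. Upper-quartile scaling moves every E11 ratio by -0.12, and with it the direction of all 9 stayed as given. The E11 libraries also differed in erythroid transcripts, whose 3 markers found as single entries summed to 22.8 FPKM in CTL against 3.31 in *Stat3* cKO, and in the 7 microglia and leukocyte markers, which summed to 8.82 against 5.35 FPKM. None of these markers was at 0 at E11. In bulk RNA, fewer cells of a type and less RNA per cell cannot be told apart, and the part of these cells in the ratios was not tested.

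At E14, where *Stat3* itself was 2.89-fold lower in *Stat3* cKO, 3 of the 9 genes passed 2-fold. *Mthfd1l*, *Mthfd2* and *Shmt1* were lower by 2.87-fold, 2.83-fold and 2.82-fold, which placed them 61st, 66th and 67th from the bottom of 12430 ratios. These 3 of 9 genes were called lower and none was called higher, against 1.69% of all genes lower and 1.85% higher (1.10% and 2.74% with upper-quartile scaling). No ratio of the 9 reached 3-fold at E14 (0.418% of all genes were lower by that much), and at E11 that of *Aldh1l2* alone did (0.402%). *Mthfd2* and *Mthfd1l* catalyse successive steps from methylene-THF to formate in mitochondria, whereas *Shmt1* acts in the cytosol. Their partners differed less, with log2 ratios of -0.40 for *Shmt2* and -0.37 for *Mthfd1*. *Aldh1l2*, the gene with the lowest ratio at E11, had a log2 ratio of -0.15 at E14, which was 0.0048 with upper-quartile scaling.

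At E14, 6 of the 9 genes were lower in *Stat3* cKO, 5 with upper-quartile scaling, while 60.1% of all genes were lower, 40.3% with that scaling. The serine synthesis genes had E14 log2 ratios of 0.42 for *Psph*, 0.25 for *Phgdh* and 0.083 for *Psat1*. None reached 2-fold, and 9.59%, 16.6% and 30.2% of genes had higher ratios. Over all genes the median log2 ratio was -0.079, and upper-quartile scaling moves each ratio by 0.15, after which *Mthfd1l*, *Mthfd2* and *Shmt1* still had log2 ratios of -1.37, -1.35 and -1.35. Among other cell types at E14, the 7 mesenchyme and pericyte markers that passed the minimum had log2 ratios with a median of -0.83, with 2 called lower and 1 higher, at the low summed levels given above. Of 7 oligodendrocyte lineage markers 3 were called higher and none lower, with summed levels of 567 FPKM in CTL against 550.1 in *Stat3* cKO. Of 5 astrocyte markers that passed the minimum 2 were called higher (summed levels of the list of 217 against 268 FPKM), and of the 8 neural progenitor markers *Hes5* alone was, by 2.37-fold. None of the 8 neuron markers was called, with 7 lower and a median log2 ratio of -0.32, while at E11 6 of the 8 were lower, with *Neurod6* called lower (-1.11) and a median of -0.25. The shares of all genes called are those given above for each stage, and the part of these cells in the ratios was not tested.

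**Figure D2:**
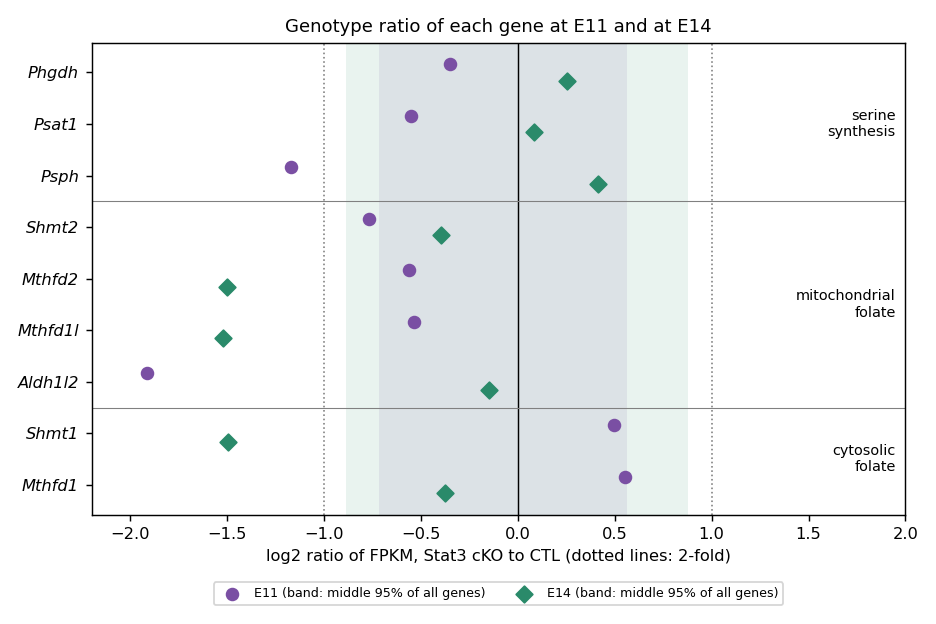
Log2 ratio of FPKM in *Stat3* cKO to CTL (horizontal axis) for each of the 9 genes (vertical axis) at E11 (circles) and E14 (diamonds), with dotted lines at 2-fold and bands for the middle 95% of all genes at each stage. At E14 *Mthfd2*, *Mthfd1l* and *Shmt1* lie near -1.5, and at E11 *Aldh1l2* lies at -1.91.

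Set side by side, the genes of each of the 3 branches shared their directions. All 4 mitochondrial genes were lower in *Stat3* cKO at both stages, a pattern of 21.5% of the 12419 genes with both ratios. At E14 the direction of *Aldh1l2* depends on the scaling, as given above. The 3 serine synthesis genes were lower at E11 and higher at E14 (16.7% of genes), and the 2 cytosolic genes were higher at E11 and lower at E14 (38.7% of genes). With upper-quartile scaling these 3 patterns held 23.6%, 39.2% and 16.7% of genes, so how common a pattern is depends on the scaling. The branches were set by where the enzymes act. The Euclidean distance between 2 profiles of log2 FPKM, each centred on its own mean, was smallest for *Phgdh* and *Psat1* (0.396), and the 5 closest of the 36 pairs were all within a branch. Beyond these the branches overlapped, since *Phgdh* and *Mthfd1* (0.964) were closer to each other than *Mthfd2* and *Mthfd1l* (1.04), and *Mthfd1l* and *Aldh1l2* were 1.62 apart.

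Between the stages in CTL, one-carbon genes moved in opposite directions by compartment. *Shmt1* rose 4.61-fold and *Mthfd1* 3.40-fold from E11 to E14, while *Aldh1l2* fell 6.04-fold, *Mthfd2* 2.69-fold and *Shmt2* 2.02-fold. Of the 9 genes, 2 were thus called higher and 3 lower, where 14.6% and 12.5% of all genes were (7.60% and 17.4% with upper-quartile scaling). The call of *Shmt2* is lost with a pseudocount of 1, which gives a log2 ratio of -0.999 and 2 genes lower. At 3-fold, *Shmt1* and *Mthfd1* were higher and *Aldh1l2* alone was lower, against 4.99% and 7.45% of all genes. *Mthfd1l* had a log2 ratio of -0.37, *Psph* of -0.33, *Psat1* of 0.064 and *Phgdh* of 0.43. The median of all genes between these libraries was 0.21, and upper-quartile scaling moves each ratio by -0.34. With the all-gene median set to 0, *Shmt1* and *Mthfd1* were at 1.99 and 1.55, *Shmt2*, *Mthfd2* and *Aldh1l2* at -1.23, -1.64 and -2.81, and *Psat1* turned to -0.15.

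In *Stat3* cKO the stages differed otherwise, and these libraries also differed in the Y-linked *Ddx3y*, as given above. *Psph* rose 2.38-fold and *Phgdh* 2.04-fold, and *Psat1* had a log2 ratio of 0.70. *Mthfd2* fell 5.15-fold and *Mthfd1l* 2.55-fold, while *Aldh1l2* and *Shmt2* had log2 ratios of -0.83 and -0.65. The call of *Phgdh* does not hold with the all-gene median set to 0, where its log2 ratio was 0.97. *Mthfd1* had a log2 ratio of 0.84 and *Shmt1* of 0.21. The 2 genes called higher and 2 called lower compare with 10.1% and 11.7% of 12426 genes. At 1.5-fold, 4 were higher and 4 lower, against 21.6% and 20.1% of genes, and at 3-fold none was higher and *Mthfd2* alone was lower, against 4.71% and 6.92%. The stage comparisons of the genotypes share no library with each other, but each shares its libraries with the genotype comparisons above, so their values restate the same 4 numbers per gene.

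Markers of other cells moved with stage as well, in both directions. Of the 8 mesenchyme and pericyte markers, the 7 above the minimum all fell at least 2-fold from E11 to E14 in CTL, by a median log2 ratio of -6.46, and the same number fell in *Stat3* cKO, by -6.99. *Col3a1* went from 674 to 7.64 FPKM in CTL, and none of the 8 was at 0 in any library. Of the 7 oligodendrocyte lineage markers, 5 rose at least 2-fold in CTL and 5 in *Stat3* cKO. Their log2 ratios had a median of 3.11 in either genotype, and the list summed to 73.0 FPKM in CTL against 94.2 in *Stat3* cKO at E11. Of the 5 astrocyte markers that passed the minimum, 3 rose and 2 fell in CTL (median of 1.49) and 3 rose and 1 fell in *Stat3* cKO (median of 3.00). Of the 8 neuron markers, 2 rose in CTL and 2 in *Stat3* cKO and none fell, with *Neurod6* going from 8.14 to 104 FPKM in CTL. The shares of all genes higher and lower by 2-fold are those given above for the stages, 14.6% and 12.5% in CTL and 10.1% and 11.7% in *Stat3* cKO. The part of these cells in the stage ratios of the serine and folate genes was not tested.

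Ratios of related enzymes within a library do not depend on scaling between libraries. SHMT2 and SHMT1 catalyse the same reaction in different compartments. *Shmt2* was 7.96 times *Shmt1* in CTL against 3.31 times in *Stat3* cKO at E11, and 0.852 times against 1.83 times at E14. The mitochondrial form thus prevailed at E11, the cytosolic one slightly in E14 CTL, and the order in *Stat3* cKO at E14 was again in favour of *Shmt2*, with *Shmt1* at 15.9 FPKM. *Mthfd1l*, whose product makes formate, was 1.37 times *Mthfd1*, whose product consumes it, in E11 CTL. That ratio was 0.644 in *Stat3* cKO at E11, and 0.312 in CTL against 0.141 in *Stat3* cKO at E14. It was thus the smaller in *Stat3* cKO at either stage, and the smaller at E14 in either genotype.

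*Mthfd2l*, for a second mitochondrial enzyme with the activity of MTHFD2, was steady, with 17.7 FPKM in CTL against 17.9 in *Stat3* cKO at E11, and 17.0 against 15.7 at E14. *Mthfd2* was 4.68 times *Mthfd2l* in CTL against 3.14 times in *Stat3* cKO at E11, and 1.82 times against 0.693 times at E14, and E14 *Stat3* cKO was the single library in which *Mthfd2l* was the higher. The widest swing was that of the formyl-THF dehydrogenases. *Aldh1l1*, the cytosolic form and a marker of astrocytes and their precursors, had 8.90 FPKM in CTL against 7.06 in *Stat3* cKO at E11, and 78.6 against 136 at E14. *Aldh1l2* was 3.87 times *Aldh1l1* in CTL against 1.29 times in *Stat3* cKO at E11, whereas *Aldh1l1* was 13.8 times *Aldh1l2* against 26.5 times at E14.

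**Figure D3:**
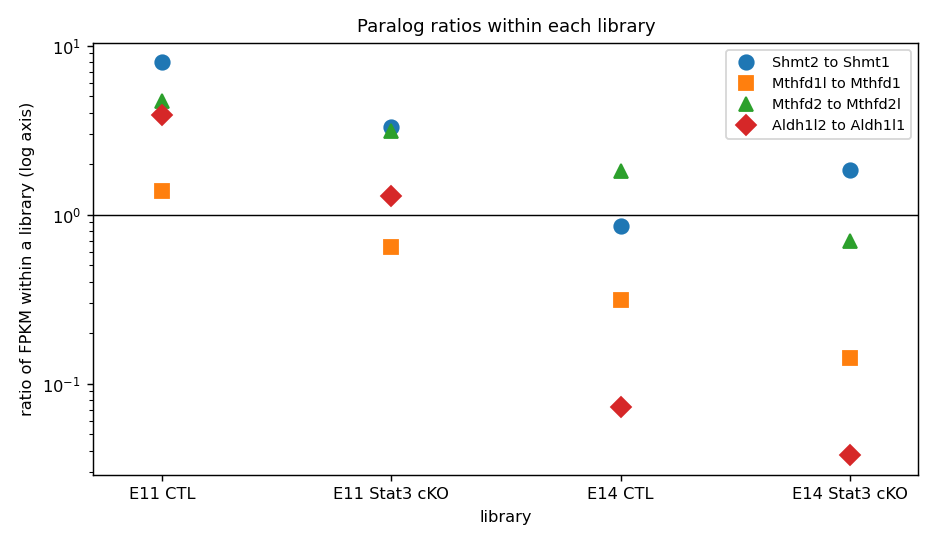
Ratio of the FPKM values of 2 related genes within a library (vertical axis, log scale) for 4 gene pairs in the 4 libraries (horizontal axis), with a line at equal levels. *Aldh1l2* to *Aldh1l1* runs from 3.87 in E11 CTL to 0.0377 in E14 *Stat3* cKO, and *Shmt2* to *Shmt1* is the one pair whose ratio is higher in E14 *Stat3* cKO than in E14 CTL.

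*Tyms*, for thymidylate synthase, which works beside SHMT1 in the synthesis of thymidylate, had 15.0 FPKM in CTL against 15.7 in *Stat3* cKO at E11, and 25.1 against 16.8 at E14. It was thus highest in E14 CTL, like *Shmt1*, and did not reach 2-fold between genotypes at either stage. *Slc25a32*, the mitochondrial folate carrier, stayed between 4.52 and 6.23 FPKM. *Sfxn1*, the mitochondrial serine carrier, had 33.2 FPKM in CTL against 31.0 in *Stat3* cKO at E11, and 60.3 against 49.1 at E14.

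The 11 genes of the ATF4 and amino acid response list were all at lower levels in *Stat3* cKO at E11, where 38.2% of all genes were (62.8% with upper-quartile scaling), as were the serine synthesis and mitochondrial folate genes. Of these 11, 6 were called lower (*Atf5*, *Ddit3*, *Trib3*, *Asns*, *Cebpb* and *Nupr1*), against 1.12% of all genes, and the median log2 ratio was -1.03 against 0.059 over all genes. *Atf4* had 310.4 FPKM in CTL against 208 in *Stat3* cKO at E11, and 113 against 76.4 at E14, which is a log2 ratio of -0.57 at either stage. *Asns*, for asparagine synthetase, had 286, 141, 55.6 and 33.1 FPKM. At E14, 10 of the 11 were lower (60.1% of all genes), none by 2-fold, with a median of -0.54, and 7 of the 11 were lower once scaled to the upper quartile (40.3% of all genes). From E11 to E14 all 11 fell at least 2-fold in CTL and 9 did in *Stat3* cKO, against 12.5% and 11.7% of all genes.

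The 12 S phase genes had the same directions between genotypes as the cytosolic folate genes. At E14 all 12 were lower in *Stat3* cKO, as were 60.1% of all genes, and 4 of them were lower by at least 2-fold (*Mcm3*, *Mcm6*, *Ung* and *Cdc6*), as were 1.69% of all genes, with a median log2 ratio of -0.87. With upper-quartile scaling *Mcm6* lost its call (-0.98) and the others kept theirs, against 1.10% of all genes lower. At E11 all 12 were higher, as were 61.8% of all genes, none by 2-fold, with a median of 0.41. The 8 mitosis genes had medians of -0.052 at E14 and 0.57 at E11. *Gart* and *Atic*, whose enzymes place formyl units in purines, had log2 ratios of -0.83 and -0.86 at E14 and of 0.31 and 0.00049 at E11. The share of cycling cells in each culture was not measured by these values, and its part in the levels of *Shmt1* and *Mthfd1* was not tested.

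**Figure D4:**
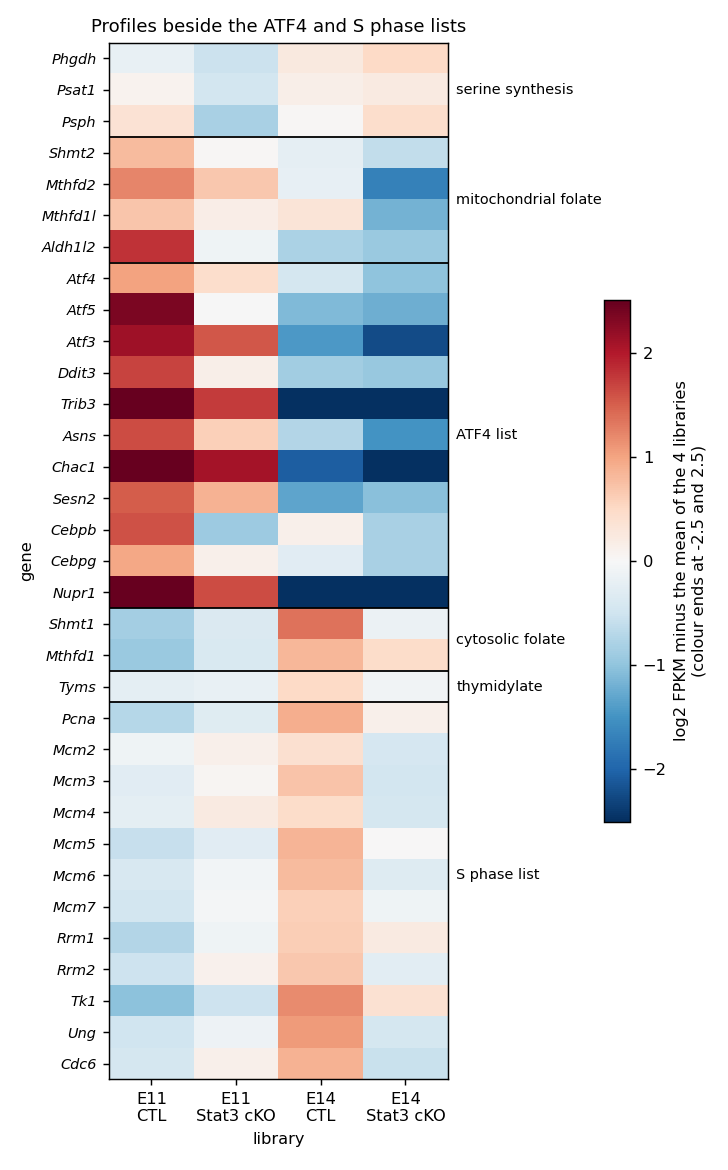
Colour gives log2 FPKM minus the mean of the 4 libraries for each gene (rows) in each library (columns), red for higher and blue for lower, with the colour ending at 2.5 on either side. The mitochondrial folate genes and the ATF4 list are red in E11 CTL and blue in E14 *Stat3* cKO, while *Shmt1*, *Mthfd1*, *Tyms* and the S phase list are reddest in E14 CTL.

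Genes with the most similar profiles were sought among 9190 others with a mean of at least 5 FPKM and no value of 0. Closest to the mean profile of all 9 genes were *Nbea*, *AW209491*, *Leprotl1*, a joined entry of *1810032O08Rik* and *Snord1a*, and *Snhg1*, at distances from 0.113 to 0.1698 over the 4 libraries. Since the 9 genes fall into branches, the nearest genes of single members are a choice made after the values were known. *Shmt2* was nearest to the joined entry of *Aars* and *Exosc6*, followed by *Yars*, *Eprs*, *Nars* and *Xpot*, at distances from 0.0857 to 0.154. Of these, *Aars*, *Yars*, *Eprs* and *Nars* encode cytosolic aminoacyl-tRNA synthetases and *Xpot* a tRNA exporter. *Aldh1l2* was nearest to *Cyb5r1*, *Ddit3*, *Cth*, *Rims3* and *Pck2*, from 0.202 to 0.592. *Ddit3* encodes the stress response factor CHOP, *Cth* an enzyme that makes cysteine, and *Pck2* mitochondrial PEP carboxykinase. *Mthfd2* was nearest to *Ifitm3*, *Rhoj*, *Jag1*, *Slc7a1* and *Eif4ebp1*, from 0.324 to 0.487, and *Mthfd1l* to *Adam12*, *Olfml3*, *Fkbp11*, *Cdkn1a* and *Dusp4*, from 0.327 to 0.508. *Slc7a1*, the 4th nearest to *Mthfd2*, encodes a transporter of cationic amino acids and *Eif4ebp1*, the 5th, an inhibitor of cap-dependent translation. Functions are given for some of the neighbours only, and not for *Cyb5r1*, *Ifitm3* and *Adam12*, each the nearest to its gene. *Shmt1* was nearest to *Fam111a*, *Hist1h4i*, *Timm8a1*, *2010204K13Rik* and *Tbc1d1*, from 0.279 to 0.384, of which *Hist1h4i* encodes a replication-dependent histone. *Phgdh* was nearest to *Rnf13* at 0.0592 and *Psat1* to *Rnu11*, a small nuclear RNA, at 0.0715. *Mthfd1* was nearest to *Gcsh*, of the glycine cleavage system, at 0.0403. *Psph* was nearest to *Gpt2*, a mitochondrial alanine transaminase, at 0.226. *Gpt2* had 98.7 FPKM in CTL against 52.5 in *Stat3* cKO at E11, and 76.7 against 109.7 at E14.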

How the data were processed

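RNA-seq values of 4 libraries, grouped by the sample titles, were used as deposited. The authors checked reads with FastQC and ran the TopHat and Cufflinks workflow, and the deposited unit is FPKM; the submitters' processing notes name Bowtie 0.12.2 and the builds mm8 and mm9, and the annotation is not given in the sources used here. Ratios are plain log2 ratios without a pseudocount over 12449 genes that averaged 1 FPKM or more, with no ratio where a value was 0. With 1 library per group no test was run, and counts past 2-fold are read against the share of all genes past it in the same comparison. The number of fragments behind a value is unknown; relative depth was estimated from values under 0.05 FPKM.

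The members and gene lists were chosen with earlier results of these data known. The rule for named genes took in the members, *Stat3*, the related genes *Mthfd2l* and *Aldh1l1*, direct neighbours in the pathway, pathway genes past 2-fold between genotypes, and the 5 nearest profiles; overlapping genes, sex-linked genes, single cell markers and genes named as examples were added after their values had been seen. Of the listed genes, *Mycl* and 4 globin genes had no entry of their own. Alternatives were pseudocounts of 0.1 and 1, the all-gene median set to 0, upper-quartile scaling, no minimum or 5 FPKM, and thresholds of 1.5 and 3. Some genes that the rule takes in, and the count of the folate cycle list, are not reported here. Protein sequences were not used here. The ratios, their centring on the median and the 2-fold call were tested on simulated data, and the other steps were not. Python 3.11.15, numpy 2.4.6, pandas 2.3.3 and matplotlib 3.10.9 were used.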

Additional observations from a re-analysis of the deposited data

Results flagged for a closer look

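In 5 of the 9 genes the ratio of *Stat3* cKO to CTL lay on opposite sides of 1 at the 2 stages, close to the share of all 12419 genes with both ratios (55.4%), and with 1 library per group this difference was not tested. On the log2 scale, the ratio at E14 minus that at E11 was 0.60 for *Phgdh*, 0.64 for *Psat1* and 1.59 for *Psph*. It was -2.00 for *Shmt1* and -0.93 for *Mthfd1*. For *Psph* the same difference of 1.59 also appears as stage ratios of opposite sign in the genotypes, -0.33 in CTL and 1.25 in *Stat3* cKO.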

How the results depend on the processing

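No paired analysis was possible because each group has 1 library, and for the same reason none could be left out. All 24 medians over the members, all 144 log2 ratios of single members and all 48 ratios of related genes recomputed under another pseudocount, scaling or minimum moved by less than 1.5-fold, and no called ratio reversed. Much of this was fixed in advance, since upper-quartile scaling cannot change a ratio within a library and all members pass the minimum settings. Each rescaling also moves all ratios of a comparison by the same amount, at most 0.34 on the log2 scale, which is below 1.5-fold. Among ratios within 2-fold, *Aldh1l2* at E14 turned from -0.15 to 0.0048 with upper-quartile scaling, and *Psat1* between the stages in CTL from 0.064 to -0.15 with the all-gene median set to 0 and to -0.27 with upper-quartile scaling. *Shmt2* between the stages in CTL lost its call with a pseudocount of 1 (-0.999). Of 64 recomputed counts of members past the threshold, 9 moved by over 1.5 times. From E11 to E14 in *Stat3* cKO, the 2 members called higher became 1 with the all-gene median set to 0 and 1 with upper-quartile scaling, 4 with a threshold of 1.5-fold and 0 with a threshold of 3-fold, and the 2 called lower became 4 and 1 with those thresholds. With a threshold of 3-fold, the count lower in *Stat3* cKO became 0 at E14 and 1 at E11, and the count lower at E14 in CTL became 1. The number of fragments behind each value is unknown, so no counting error can be attached to the lower values, such as the 4.58 FPKM of *Mthfd1l*.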

Other observations

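Genes that feed or drain the pathway showed patterns of their own. Of the 6 listed genes of glycolysis around phosphoglycerate, 5 passed the minimum, and all 5 were higher in *Stat3* cKO at E11, as were 61.8% of all genes, none by 2-fold, with a median log2 ratio of 0.45 against 0.059 over all genes. There *Phgdh*, *Psat1* and *Psph*, which draw on the same metabolite, were lower. *Eno1* had 83.4 FPKM in E11 CTL and 161 in E11 *Stat3* cKO, and *Pgk1* had 333 and 464. At E14 the same 5 genes had a median of -0.17. The 4 genes of the glycine cleavage system had medians of 0.26 at E11 and -0.27 at E14, with none past 2-fold. *Gldc*, its decarboxylase, had 12.2 FPKM in CTL against 15.9 in *Stat3* cKO at E11, and 31.8 against 28.3 at E14. All 8 methionine cycle genes above the minimum were lower in *Stat3* cKO at E14, as were 60.1% of all genes, none by 2-fold, with a median of -0.32 against -0.079 over all genes. With upper-quartile scaling the median was -0.17 and 6 of the 8 were lower, against 40.3% of all genes.

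The transsulfuration enzymes, which turn homocysteine and serine into cysteine, changed places between the stages. *Cbs*, for the enzyme that joins serine to homocysteine, had 0.912 FPKM in CTL against 0.749 in *Stat3* cKO at E11, and 29.3 against 27.6 at E14. *Cth*, for the next step, had 41.1 FPKM in CTL against 13.3 in *Stat3* cKO at E11, and 9.38 against 9.44 at E14, and was 3.08-fold lower in *Stat3* cKO at E11. Among 9 serine and glycine transporters none was past 2-fold between genotypes at either stage. With upper-quartile scaling *Slc7a10* was higher in *Stat3* cKO by over 2-fold at E14, at a log2 ratio of 1.06 (0.91 as deposited), as were 2.74% of all genes. *Slc1a4* had 55.1 FPKM in E11 CTL and 31.4 in E11 *Stat3* cKO, and *Slc6a9*, a glycine transporter, had 25.0 and 13.7. The 5 genes of serine use above the minimum had medians of -0.051 at E14 and 0.030 at E11. Of the MYC family, *Mycn* stayed between 17.9 and 24.3 FPKM, and *Myc* had 1.37 FPKM in CTL against 0.990 in *Stat3* cKO at E11, and 5.85 against 3.35 at E14.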
